A study of Mus musculus with 12 samples.

Results

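The vessel wall keeps blood fluid through a small set of endothelial coagulation and complement regulators, and 9 of their genes were followed here through all 12 libraries: Vwf, Thbd, Procr, Tfpi, F5, F8, Cd59a, Cd59b and Cd55. They were taken by name from a count table of 21638 genes, and all 9 had a mean count of at least 10 per library, the minimum for testing, as did 12577 genes in all. The genes were picked on function, with their levels and differences in these same libraries already known. Their levels and differences are therefore given as a description, and the adjusted p-values beside them, from a fit over all 12577 genes, support no claim about the choice.

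RNA was sequenced from endothelial cells of adult mouse brain cortex, sorted as positive for CD31, an endothelial surface protein, and negative for the platelet integrin CD41 and the leukocyte protein CD45. There were 4 groups of 3 libraries: WT, Hdac2 ECKO (endothelial knockout, Hdac2lox/lox:Cdh5CreERT2), Ezh2 ECKO (Ezh2lox/lox:Cdh5CreERT2) and beta-catenin GOF (gain of function, Ctnnb1lox/lox:Cdh5CreERT2). Cdh5CreERT2 is a tamoxifen-activated recombinase driven by the VE-cadherin gene, which endothelial cells use. Mutant mice received 5 doses of tamoxifen at 75 mg/kg, and brains were taken 2 months later. Whether WT mice carried the recombinase or received tamoxifen is not stated. The labels do not say that replicates are separate animals, and they give no batch, so p-values measure the spread between these libraries, which may be technical.

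Coagulation is held in check at the endothelial surface by thrombomodulin (Thbd), which turns thrombin towards activating protein C, and by the endothelial protein C receptor (Procr), which presents protein C for that step. Tissue factor pathway inhibitor (Tfpi) blocks the start of the cascade. Von Willebrand factor (Vwf) is stored in Weibel-Palade bodies, tethers platelets and carries factor VIII (F8), while factor V (F5) is the cofactor of factor Xa. Complement is restrained on host cells by CD55, which dissociates the convertase enzymes, and by CD59, which blocks assembly of the membrane attack complex. Mice carry a pair of CD59 genes, Cd59a and Cd59b.

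The Cd59 pair lies side by side on the plus strand of chromosome 2 (GRCm38/mm10), Cd59b at chr2:104069849-104091187 and Cd59a at chr2:104095801-104115354. Because the levels of these close copies differed between groups in different ways, the start of each coding sequence is shown, from the GENCODE M21 transcripts, with capitals where the aligned copies differ or one copy lacks the base.
Cd59a: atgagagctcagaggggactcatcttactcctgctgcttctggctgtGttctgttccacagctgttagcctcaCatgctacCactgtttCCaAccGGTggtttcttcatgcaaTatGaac
Cd59b: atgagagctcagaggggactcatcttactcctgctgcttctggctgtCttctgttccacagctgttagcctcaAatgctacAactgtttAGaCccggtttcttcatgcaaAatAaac
Over the whole coding sequences, 304 of 357 aligned bases were identical (85.2%). Of the 75-base windows of the transcripts compared, 30 of 1732 in Cd59a (1.73%) and 30 of 722 in Cd59b (4.16%) occurred unchanged in the other gene. How reads matching both copies were counted is not stated, so the values of both genes are uncertain. Cd59a had far more counts, 24076 against 1245 in WT replicate 1 and 15787 against 391 in Hdac2 ECKO replicate 1. Reads of Cd59a counted for Cd59b could therefore change the value of Cd59b by more than these window shares.

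Promoter sequences from RefSeq (GRCm38.p6, 250 bases before to 50 after the start) were matched for 7 of the 9 genes, all but Vwf and Thbd. They were searched on both strands for the core word CTTTGAA and its variants that end in AT, TA or TT, which T-cell factor proteins, the DNA-binding partners of beta-catenin, recognise. Only Cd59b held a match, CTTTGAA on its own strand 160 bases before the start (position -160). At least 1 match was present in 16.9% of all 32851 promoters of this length. Both Cd59 promoters are shown for that reason, with the match in capitals.
Cd59a, chr2:104095551-104095850, plus strand: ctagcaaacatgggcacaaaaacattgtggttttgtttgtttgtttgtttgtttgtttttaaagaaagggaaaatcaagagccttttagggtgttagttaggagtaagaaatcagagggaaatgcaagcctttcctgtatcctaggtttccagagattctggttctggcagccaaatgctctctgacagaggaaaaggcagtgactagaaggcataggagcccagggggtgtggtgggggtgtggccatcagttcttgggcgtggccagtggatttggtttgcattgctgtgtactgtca
Cd59b, chr2:104070816-104071115, plus strand: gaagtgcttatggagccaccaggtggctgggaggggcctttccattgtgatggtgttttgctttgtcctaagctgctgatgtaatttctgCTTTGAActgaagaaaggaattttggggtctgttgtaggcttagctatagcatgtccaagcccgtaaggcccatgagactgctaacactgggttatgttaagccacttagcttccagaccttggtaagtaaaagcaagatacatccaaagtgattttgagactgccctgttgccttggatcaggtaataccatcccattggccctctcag
A match in letters describes the sequence and shows no binding. The RefSeq start of Cd59b lies inside the span of the gene in the count table, and the 50 bases after it occur unbroken in no GENCODE transcript of the gene. Such a match was also missing for F5, so its absence says little alone. This window may not be the promoter used in these cells, which was not tested.

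Total counts per library ran from 24781070 to 36109975. The summed endothelial markers stood at 12221 to 21640 CPM (counts relative to the library total, scaled with edgeR's TMM factors) in every library, against 6.72 to 56.0 CPM for 12 platelet genes. Most of the endothelial sum came from 1 gene, Ly6c1, with group means of 8128 to 13495 CPM. Other markers in it went both ways: from WT to Hdac2 ECKO, mean Cldn5 went from 1490 to 697 CPM and mean Flt1 from 1293 to 2050. The targeted genes gave no clear check of the labels. Ezh2 stood at 8.92 ± 3.36 CPM (SD, n = 3) in the Ezh2 ECKO-labelled libraries and 6.75 ± 3.52 in WT, so it was not lower there. Hdac2 stood at 96.5 ± 15.1 CPM in Hdac2 ECKO and 129 ± 30.1 in WT with overlapping libraries, and Ctnnb1 at 583 ± 109 in beta-catenin GOF and 654 ± 138 in WT. Mean Ctnnb1 was higher in the other mutant groups, at 1157 ± 271 CPM in Hdac2 ECKO and 1101 ± 303 in the Ezh2 ECKO-labelled libraries. The latter overlapped WT. Counts per gene do not resolve a deleted exon. Red blood cell genes differed widely, with a summed 36120 to 61354 CPM in WT, 401 to 21669 in Hdac2 ECKO, 2518 to 6661 in the Ezh2 ECKO-labelled libraries and 510 to 35353 in beta-catenin GOF. Their part in the results below was not tested.

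Between genes, levels can be set side by side only per transcript length, and TPM (counts per gene length relative to their sum in the library, computed here with the table's lengths) served for that alone. In WT, Cd59a stood at 840.1 ± 160.1 TPM (SD, n = 3), above every other gene of the set. Thbd followed at 60.4 ± 7.80 TPM and Cd59b at 52.3 ± 18.9 TPM, with overlapping libraries. Procr at 21.01 ± 7.96 TPM and Tfpi at 20.5 ± 9.01 TPM overlapped as well, above Vwf at 9.44 ± 1.62 TPM. F5 at 2.49 ± 1.78 TPM and Cd55 at 1.80 ± 0.744 TPM overlapped each other, and F8 was lowest at 0.166 ± 0.157 TPM. The order of Thbd and Cd59b differed between groups. Thbd stood above Cd59b in every Hdac2 ECKO library and every Ezh2 ECKO-labelled library, whereas in beta-catenin GOF Cd59b, at 126 ± 21.5 TPM, stood above Thbd, at 57.1 ± 4.56 TPM, in every library.

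**Figure D1:**
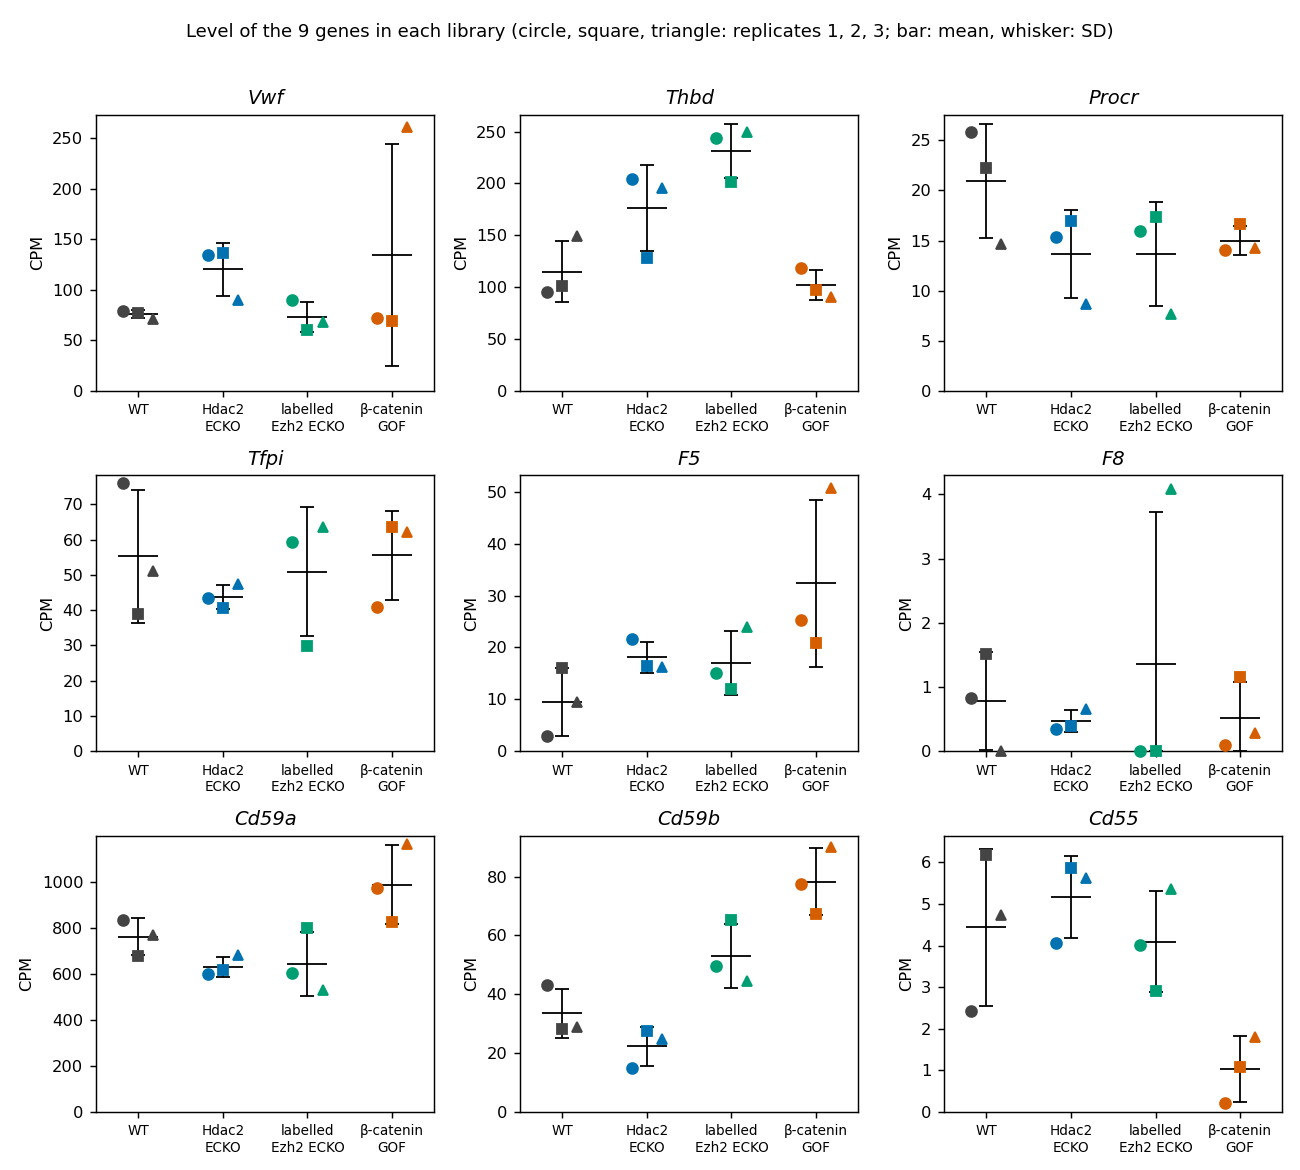
CPM (linear axis from 0) of each of the 9 genes in every library, by group; points are replicates 1 to 3, the bar is the mean and the whisker the SD (n = 3), drawn no lower than 0. Cd59b separates all 4 groups on this TMM scale (WT and Hdac2 ECKO overlap relative to library totals alone), Cd55 is lowest in every beta-catenin GOF library, and the high means of Vwf and F5 in beta-catenin GOF lean on replicate 3.

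The clearest differences among the complement regulators were in Cd59b. It stood at 43.2, 28.3 and 29.0 CPM in WT replicates 1 to 3, 14.8, 27.3 and 24.7 in Hdac2 ECKO, 49.5, 65.2 and 44.4 in the Ezh2 ECKO-labelled libraries, and 77.5, 67.3 and 90.1 in beta-catenin GOF. On this TMM scale no 2 groups overlapped: every Hdac2 ECKO library lay below every WT library, every Ezh2 ECKO-labelled library above WT, and every beta-catenin GOF library above all others. The step between WT and Hdac2 ECKO depends on the scaling. Relative to library totals alone, Hdac2 ECKO stood at 15.8, 32.9 and 27.4 CPM and overlapped WT, at 43.1, 27.0 and 25.8, and the fitted log2 difference of this pair was -0.33 in place of -0.59. The other pairs of groups stayed apart on that scale. Cd59b rose in beta-catenin GOF relative to Hdac2 ECKO, by 1.81 on the log2 scale (SE 0.29, 3.51-fold, edgeR adjusted p = 0.033). In the edgeR fit over all libraries it was the only gene of the set called in any of the 6 comparisons between groups, and in that comparison 0.0716% of all genes tested were called. The call rests on every library but 1: it was kept without Hdac2 ECKO replicate 2 (adjusted p = 0.035) and lost without any of the other 5, with adjusted p-values of up to 0.19. The difference itself ran from 1.59 to 2.03 over these 6 fits.

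Against WT, the fitted difference of Cd59b was 1.22 (SE 0.29) in beta-catenin GOF with an edgeR adjusted p of 0.39. It was 0.66 (SE 0.29) in the Ezh2 ECKO-labelled libraries with an adjusted p of 0.17. In Hdac2 ECKO it was -0.59 (SE 0.29) with an adjusted p of 0.16. None of these passed the threshold of 0.05. The first passed it in 3 of 10 other settings of the analysis, and neither of the others did in any of 10. Between Hdac2 ECKO and the Ezh2 ECKO-labelled libraries the difference was -1.25 (SE 0.29, adjusted p = 0.23).

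Cd59a, the abundant copy, differed less. It stood at 835, 676 and 770.1 CPM in WT, 598, 615 and 680.2 for Hdac2 ECKO, 601, 798 and 530.2 in the Ezh2 ECKO-labelled libraries, and 974, 823 and 1166 in beta-catenin GOF. The beta-catenin GOF libraries lay above every library of the Hdac2 ECKO group and every Ezh2 ECKO-labelled library, and overlapped WT. Against WT the log2 difference was 0.38 (SE 0.24) in beta-catenin GOF, -0.27 (SE 0.24) in Hdac2 ECKO and -0.24 (SE 0.24) in the Ezh2 ECKO-labelled libraries, with adjusted p-values of 0.89, 0.45 and 0.55.

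The share of Cd59b in the summed counts of the pair does not depend on how libraries are scaled. It was 4.19 ± 0.660% (SD, n = 3) for WT and 3.39 ± 0.926% for Hdac2 ECKO. In the Ezh2 ECKO-labelled libraries it was 7.63 ± 0.0866%, and in beta-catenin GOF 7.37 ± 0.192%. The lowest library of the latter 6, at 7.18% (95% Wilson interval 6.94 to 7.42%), lay above the highest of the WT and Hdac2 ECKO libraries, at 4.92% (4.66 to 5.19%). These intervals cover counting error only and are too narrow, since most read pairs appear to have been counted as 2. In the Ezh2 ECKO-labelled libraries Cd59b lay above WT while Cd59a lay within or below its WT range. In beta-catenin GOF Cd59b lay above WT and Cd59a overlapped it.

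**Figure D2:**
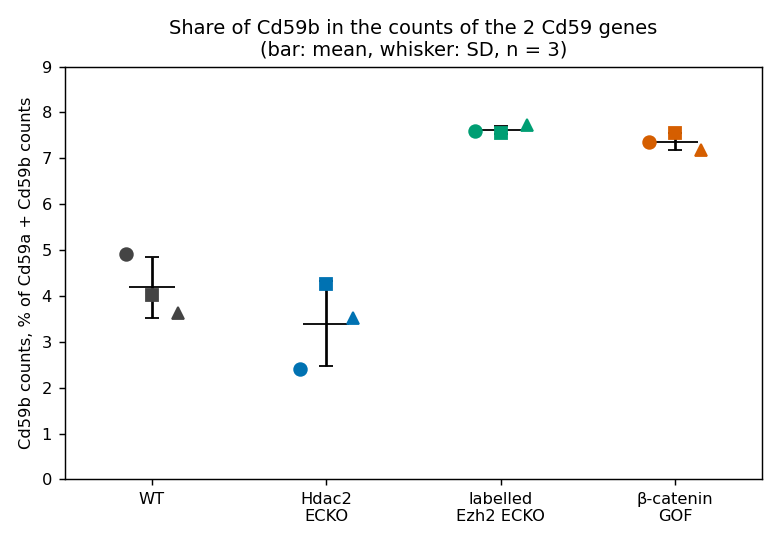
Counts of Cd59b as a percentage of the counts of Cd59a and Cd59b together (linear axis from 0) in each library, by group; the bar is the mean and the whisker the SD (n = 3). The 6 libraries of WT and Hdac2 ECKO lie at or below 4.92%, and the 6 libraries of the other groups at or above 7.18%.

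Cd55 (decay-accelerating factor, chr1:130439027-130462744, minus strand) was far less abundant. It stood at 2.43, 6.17 and 4.73 CPM in WT, 4.05, 5.87 and 5.61 for Hdac2 ECKO, 4.02, 2.91 and 5.35 in the Ezh2 ECKO-labelled libraries, and 0.205, 1.08 and 1.80 in beta-catenin GOF. Every beta-catenin GOF library lay below the other 9, and the other 3 groups overlapped. The fitted difference from WT was -2.10 (SE 0.63), or 0.233 of the WT level, with an edgeR adjusted p of 0.60. Leaving out 1 library at a time it ran from -2.76 to -1.62 and passed the threshold in no fit. The same group differed from Hdac2 ECKO by -2.32 (SE 0.64, adjusted p = 0.17) and from the Ezh2 ECKO-labelled libraries by -1.98 (SE 0.63, adjusted p = 0.29). Its copy Cd55b shares 92.0% of aligned coding bases, and an antisense gene overlaps its start, so a part of these few counts could belong elsewhere.

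Of the 6 coagulation genes in the set, thrombomodulin had the largest fitted difference from WT in relation to its standard error. Thbd (chr2:148404466-148408188, minus strand) stood at 94.8, 101 and 149 CPM in WT, 204, 128 and 196 for Hdac2 ECKO, 243, 202 and 249.5 in the Ezh2 ECKO-labelled libraries, and 119, 97.4 and 90.8 in beta-catenin GOF. Each Ezh2 ECKO-labelled library lay above every WT and beta-catenin GOF library. Hdac2 ECKO overlapped WT through its replicate 2, and beta-catenin GOF overlapped WT. Here and below, fewer cells of a type and less RNA per cell cannot be told apart in such bulk samples.

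The difference of Thbd from WT was 1.01 (SE 0.26, 2.01-fold) in the Ezh2 ECKO-labelled libraries, with an edgeR adjusted p of 0.063. It passed the threshold in 6 of 10 other settings and in 2 of 6 fits without 1 library, those without WT replicate 3 (adjusted p = 0.022) or Ezh2 ECKO replicate 2 (adjusted p = 0.016). In Hdac2 ECKO the difference was 0.61 (SE 0.26, adjusted p = 0.11), and it passed in 2 of 10 other settings and without WT replicate 3. In beta-catenin GOF it was -0.17 (SE 0.26, adjusted p = 0.95). Between beta-catenin GOF and the Ezh2 ECKO-labelled libraries it reached -1.18 (SE 0.26, adjusted p = 0.16). That difference passed the threshold in 3 of 10 other settings, and without Ezh2 ECKO replicate 2 (adjusted p = 0.031).

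Procr, the protein C receptor (chr2:155751117-155755471, plus strand), was at 25.8, 22.2 and 14.7 CPM in WT, 15.4, 17.0 and 8.66 for Hdac2 ECKO, 15.9, 17.3 and 7.68 in the Ezh2 ECKO-labelled libraries, and 14.0, 16.7 and 14.2 in beta-catenin GOF. All 3 mutant means lay below the WT mean, and each group overlapped WT through WT replicate 3. The fitted differences were -0.61 (SE 0.35), -0.62 (SE 0.35) and -0.48 (SE 0.35) in that order, with adjusted p-values of 0.23, 0.29 and 0.91. The 3 comparisons share the WT libraries. After a correction for gene length and GC content the differences in the first 2 became -0.13 and -0.23.

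Tfpi (chr2:84432855-84476775, minus strand) overlapped between all 4 groups. Its group means were 55.3 ± 18.9 CPM in WT, 43.8 ± 3.32 in Hdac2 ECKO, 50.9 ± 18.3 in the Ezh2 ECKO-labelled libraries and 55.6 ± 12.6 in beta-catenin GOF. The largest fitted difference from WT was -0.34 (SE 0.32, adjusted p = 0.48), in Hdac2 ECKO. Single libraries spanned 29.9 CPM, in replicate 2 labelled Ezh2 ECKO, to 75.9 CPM, in WT replicate 1.

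Vwf, the platelet tether (chr6:125546774-125686679, plus strand), was even across WT and uneven in beta-catenin GOF. Its level was 78.7, 77.1 and 71.3 CPM in WT, 134, 136 and 89.8 for Hdac2 ECKO, 89.4, 60.3 and 68.2 in the Ezh2 ECKO-labelled libraries, and 72.1, 69.1 and 261 in beta-catenin GOF. Every Hdac2 ECKO library lay above every WT library, while in beta-catenin GOF only replicate 3 did. The difference from WT in Hdac2 ECKO was 0.67 (SE 0.41, adjusted p = 0.26). It became -0.27 after the length and GC correction. Vwf is long, with 16064 bases of exons in the table against a median of 4429 bases for genes tested. Its GC content, 56.5%, was also the highest of the set. The correction fits length and GC content together, so their parts were not separated.

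In beta-catenin GOF the Vwf difference of 0.83 (SE 0.41, adjusted p = 0.84) became -0.10 without replicate 3. That library also had the highest sum of 10 venous endothelial markers, 1449 CPM, against 556 to 741 CPM in WT and 634 and 810.0 CPM in the other beta-catenin GOF libraries. All 10 venous genes exceeded 3 counts in it, 8 lay above every WT library and 1, Nr2f2, below. Replicate 1 of beta-catenin GOF, with Vwf at 72.1 CPM, was alike, with 7 above every WT library and Nr2f2 below. Replicate 2 had 0 above and 2 below. The counts above were 6, 5 and 4 in Hdac2 ECKO and 6, 5 and 5 in the Ezh2 ECKO-labelled libraries. Those below were 2, 4 and 3, and 3, 2 and 2. Replicate 3 of beta-catenin GOF also had the highest sum of 8 oligodendrocyte genes, 1097 CPM, against 359 to 474 CPM in WT, with 7 of the 8 above 3 counts. Its sum of platelet genes, 45.1 CPM, was close to that of replicate 1, at 45.2 CPM, and to the highest WT library, at 43.5 CPM. The part of venous or oligodendrocyte transcripts in the Vwf value was not tested.

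F5, the factor V gene (chr1:164151838-164220277, plus strand), was at 2.91, 16.0 and 9.50 CPM in WT, 21.6, 16.5 and 16.3 for Hdac2 ECKO, 15.2, 12.0 and 24.0 in the Ezh2 ECKO-labelled libraries, and 25.3, 20.9 and 50.8 in beta-catenin GOF. The beta-catenin GOF and Hdac2 ECKO libraries all lay above WT, the latter only just, and the Ezh2 ECKO-labelled libraries overlapped WT. The difference from WT was 1.77 (SE 0.50, 3.41-fold, adjusted p = 0.54) in beta-catenin GOF. It was 1.28 without beta-catenin GOF replicate 3 and 2.38 without WT replicate 2, and passed the threshold in neither fit. It passed in 1 of 10 other settings, with no filter on low counts (adjusted p = 0.00029). The Hdac2 ECKO difference was 0.93 (SE 0.49, adjusted p = 0.19), and 0.50 without WT replicate 1.

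F8 (chrX:75172715-75382615, minus strand) was barely detected. Its counts were 24, 48 and 0 in WT, 9, 12 and 19 for Hdac2 ECKO, 0, 0 and 114 in the Ezh2 ECKO-labelled libraries, and 3, 44 and 10 in beta-catenin GOF. A count of 0 allows up to 3 counts if counts are independent, or 0.0791 to 0.118 CPM depending on the library. Since most read pairs appear to have been counted as 2, this limit is too low. All groups overlapped. The fitted difference of 0.79 (SE 1.70, adjusted p = 0.81) in the Ezh2 ECKO-labelled libraries turned to -7.60 without their replicate 3, so no direction can be read. The abundant gene Fundc2 overlaps the start of F8 on the opposite strand, and the use of strand in counting is not stated.

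**Figure D3:**
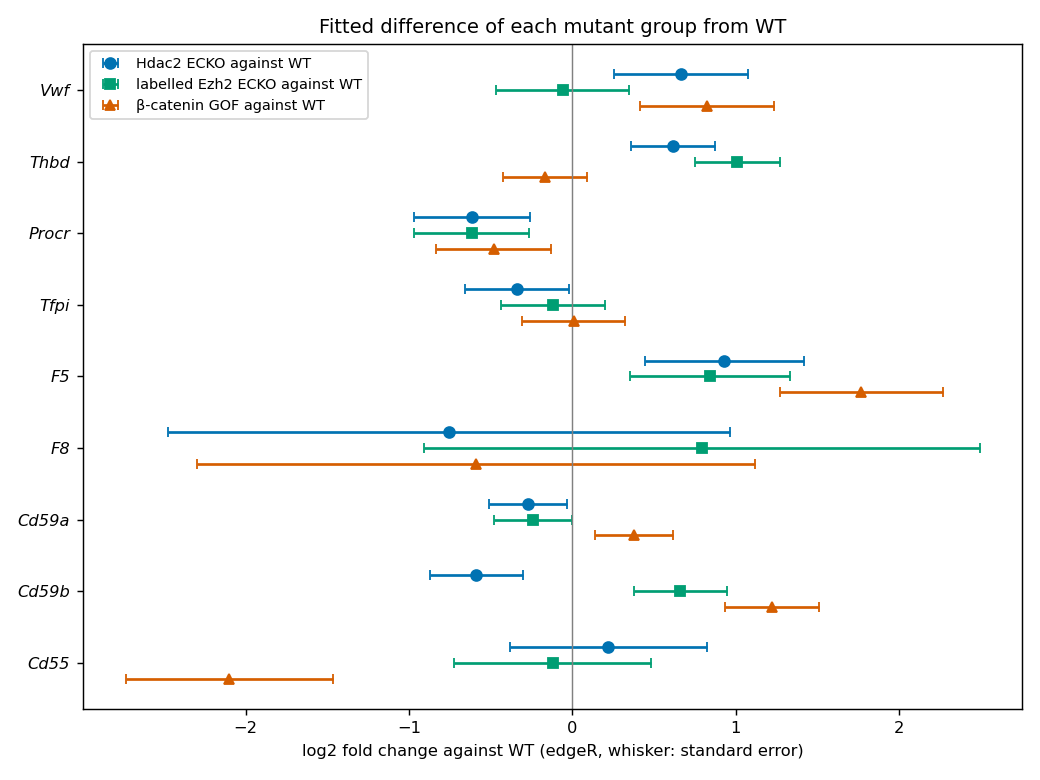
Fitted log2 fold change of each gene in the 3 mutant groups against WT (edgeR; whiskers are standard errors, the vertical line marks no difference). No point passed an adjusted p of 0.05; Cd59b spans -0.59 in Hdac2 ECKO to 1.22 in beta-catenin GOF, and F8 has standard errors of 1.70 to 1.72.

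Counted over the set, 3 of 9 genes did not overlap between Hdac2 ECKO and WT (Vwf and F5 higher, Cd59b lower), where 37.8% of all genes tested did not overlap. The count was 2 of 9 in the Ezh2 ECKO-labelled libraries (Thbd and Cd59b higher), where it was 22% of all genes. It was 3 of 9 in beta-catenin GOF (F5 and Cd59b higher, Cd55 lower), where it was 12.7%. By adjusted p, 0 of the 9 were called against WT in any group, where the share of all genes called was 9.2%, 1.03% and 0% in the same order. At an unadjusted p under 0.05 the counts of the 9 were 1, 2 and 3, against 33.1%, 24.7% and 6.06% of all genes. DESeq2 called 0, 1 and 1 of the 9, against 20.3%, 10.1% and 0.303% of the genes to which it gave an adjusted p. Between mutant groups, 2 of 9 did not overlap for Hdac2 ECKO and the Ezh2 ECKO-labelled libraries (13.2% of all genes), 4 of 9 for beta-catenin GOF and Hdac2 ECKO (32%) and 4 of 9 for beta-catenin GOF and the Ezh2 ECKO-labelled libraries (16.7%). Of these comparisons the first and the last called 0 of the 9 by adjusted p, where 0.0239% and 0.0636% of all genes were called. Since the genes were chosen with these results known, nothing is read from the counts.

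Differences without 1 library show where a single library carried a value. Those of Cd59b kept their sign in all 18 fits against WT, as did those of Procr, F5 and Cd59a. Signs did not hold in every fit for Vwf in beta-catenin GOF and the Ezh2 ECKO-labelled libraries, Tfpi in the same groups, Thbd in beta-catenin GOF, Cd55 in the other 2 mutant groups, and F8 in all 3.

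**Figure D4:**
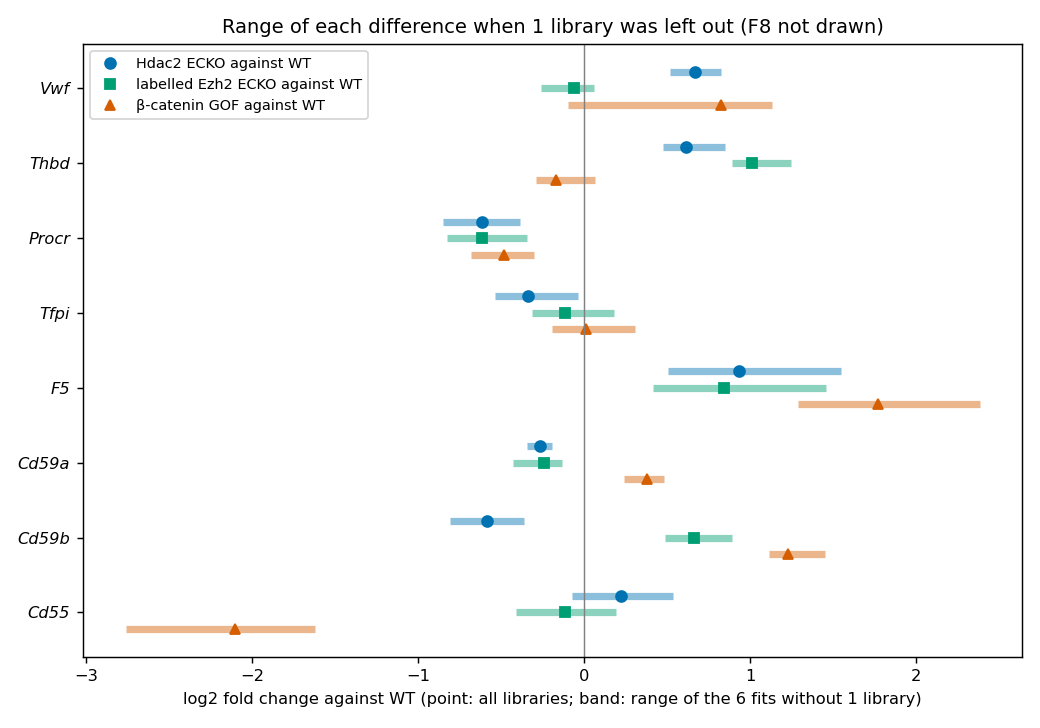
Log2 fold change against WT for 8 of the genes (F8 left out for its counts of 0): points are fits with all libraries and bands the range over the 6 fits that each leave out 1 library of the 2 groups. The band of Vwf in beta-catenin GOF reaches from -0.10 to 1.13, and that of Cd55 in the same group stays between -2.76 and -1.62.

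The wider pathways were described with 4 lists of other genes (coagulation, Weibel-Palade bodies, complement components, and complement regulators and receptors), of which 60 genes were tested. Against WT, 8 were called in Hdac2 ECKO, 4 higher and 4 lower, while 3.82% of all genes tested were called higher and 5.38% lower. None was called in either other mutant group by edgeR. There 15 genes in the Ezh2 ECKO-labelled libraries and 9 in beta-catenin GOF had an unadjusted edgeR p under 0.05. The shares of all genes tested under that cut were 24.7% and 6.06%. DESeq2 called 11 and 3 of the list genes, against the same 10.1% and 0.303% of all genes. The median log2 difference of the 60 in Hdac2 ECKO was 0.32, against 0.10 for all genes tested. All 8 calls were lost without WT replicate 1, WT replicate 2, Hdac2 ECKO replicate 1 or Hdac2 ECKO replicate 3, and 11 and 12 genes were called without WT replicate 3 and Hdac2 ECKO replicate 2. Calls over all genes moved in the same way, to 0, 0, 3 and 0 in the first 4 of these fits, in the order given, and to 1872 and 2215 in the other 2, from 1157 with all libraries.

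Among 20 other coagulation genes, 3 were called lower in Hdac2 ECKO and 0 higher, while 9 had a log2 difference above 0 and 11 below. Anxa2, a surface receptor that brings plasminogen and its activator together, went from 474 ± 24.1 CPM (SD, n = 3) in WT to 174 ± 58.7 and fell by 1.45 on the log2 scale (SE 0.35, edgeR adjusted p = 0.034). Hs3st1, which makes the heparan sulfate that binds antithrombin, went from 89.7 ± 36.8 to 34.7 ± 8.47 CPM and fell by 1.37 (SE 0.33, adjusted p = 0.034). Anxa5, which shields phosphatidylserine from coagulation factors, also fell, by 1.19 (SE 0.30, adjusted p = 0.036), which became -0.74 and lost its call (adjusted p = 0.051) after the length and GC correction. In both genes described by level, no Hdac2 ECKO library reached the lowest WT library. The same held in the Ezh2 ECKO-labelled libraries, at 177 to 424 CPM for Anxa2 and 32.3 to 57.5 CPM for Hs3st1. Between that group and WT, 22% of all genes tested did not overlap. In beta-catenin GOF both genes overlapped WT.

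F3 (tissue factor), which starts coagulation, was near the limit of detection, with 0 to 18 counts in the 12 libraries, and was not tested. The thrombin receptor F2r had 11.0, 6.46 and 16.5 CPM in WT and 3.14, 1.16 and 0.929 in beta-catenin GOF, which did not overlap. That difference was -2.71 (SE 0.56, adjusted p = 0.35). Pros1 (protein S, the cofactor of activated protein C) and Entpd1 (CD39, which removes the platelet agonist ADP) were called in no group, with differences from WT of -0.24 to 0.10 and of -0.60 to -0.40.

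Weibel-Palade body genes gave 3 of 19 called higher and 1 lower in Hdac2 ECKO. Myrip, which anchors the granules to actin, rose from 6.74 ± 1.61 to 20.5 ± 9.86 CPM (log2 difference 1.61, SE 0.36, edgeR adjusted p = 0.034). Stxbp5, a syntaxin-binding protein that restrains their release, rose by 1.33 (SE 0.33, adjusted p = 0.035), which became 0.40 and lost its call after the length and GC correction. Synrg, an adaptor partner in granule formation, rose by 1.00 (SE 0.27, adjusted p = 0.039), which became 0.46 and lost its call likewise. Ap1m1, a subunit of the AP-1 adaptor, fell by 1.62 (SE 0.39, adjusted p = 0.034). In the Ezh2 ECKO-labelled libraries, Synrg had a difference of 1.02 (SE 0.27) with an adjusted p of 0.065. On the TMM scale, Myrip at 11.6 to 19.4 CPM and Stxbp5 at 20.9 to 34.1 CPM also lay above every WT library there. Ap1m1, at 8.76 to 18.1 CPM, lay below. Between that group and WT, 22% of all genes tested did not overlap. Myrip and Synrg lay above WT in beta-catenin GOF too, while Stxbp5 and Ap1m1 overlapped it.

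Of 11 complement components tested, only C1s1, a protease of the C1 complex, was called in Hdac2 ECKO. It had 0, 8 and 2 counts in WT and 237, 48 and 58 in Hdac2 ECKO, so its fitted rise of 5.20 (SE 1.12, edgeR adjusted p = 0.032) is measured against a group near 0. Its counts were 20, 31 and 70 in the Ezh2 ECKO-labelled libraries and 66, 74 and 40 in beta-catenin GOF, all above WT, with adjusted p-values of 0.075 and 0.54. The summed markers of pericytes and smooth muscle also stood higher in Hdac2 ECKO, at 133 to 346 CPM against 60.7 to 124 in WT. In the Ezh2 ECKO-labelled libraries, where C1s1 also stood above WT, the sum was 58.0 to 80.4 CPM, and in beta-catenin GOF it was 114 to 429 CPM. Of these 12 markers, 12 exceeded 3 counts in a Hdac2 ECKO library and 11 in a WT library, Cnn1 being at 0 in all WT libraries. Their part in the C1s1 value was not tested.

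None of 10 other complement regulators and receptors was called against WT in the edgeR fit over all libraries. Cr1l (Crry), the broad rodent regulator of the convertases, stood at 424 ± 21.2 CPM in WT and 310 ± 15.8 in Hdac2 ECKO. Every Hdac2 ECKO library lay below WT on the TMM scale, but the groups overlapped relative to library totals alone. The log2 difference was -0.45 (SE 0.21, edgeR adjusted p = 0.14). That difference became -1.0 and was called after the length and GC correction (adjusted p = 0.039). Serping1, the inhibitor of C1 proteases, varied from 0.569 to 6.08 CPM within WT and was called in no group. Clu (clusterin), which binds terminal complement complexes, stood at 74.5 ± 10.7 CPM in WT and 28.0 ± 8.09 in the Ezh2 ECKO-labelled libraries (log2 difference -1.41, SE 0.38, adjusted p = 0.067). In Hdac2 ECKO it stood at 32.3 ± 12.7 CPM (-1.21, SE 0.37, adjusted p = 0.053). Neither group overlapped WT.

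Across the 12 libraries, log2 levels of the 9 genes were related in different ways, given here as a description over libraries that share groups, depth and cell content. The highest Pearson correlation within the set was that of Cd59a and Cd59b, at 0.68, followed by Vwf and F5 at 0.49. Thbd and Cd59a had the lowest, at -0.70, and Cd55 ran against Cd59a at -0.69 and against Cd59b at -0.67. Outside the set, the genes most like Cd59b were Sparc at 0.88 and Gstm2 at 0.87, and those most like Cd59a were Csrp2 at 0.93 and Vta1 at 0.88. Thbd was most like Prpf39 at 0.97 and Cobll1 at 0.96, Procr most like Elp3 at 0.95 and Nop56 at 0.92, and Cd55 most like Trmt61a at 0.93 and Gprc5b at 0.92. Vwf was most like B4galt5 at 0.90 and Acer2 at 0.87, and F5 most like Nbas at 0.86 and Unc5b at 0.85. For Tfpi they were Zfp422 and Rhbdf1, both at 0.83, and for F8 they were Pparg at 0.92 and Zfp286 at 0.90. These values are high by selection, since each is among the highest of the 12577 genes tested. What values other genes reach was not computed.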

How the data were processed

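The authors deposited 1 table of counts per gene for all 12 libraries. Its name calls the values normalized, but they are whole numbers with library totals of 24781070 to 36109975. From 79.5 to 84.0% of values from 10 to 50 are even, which happens if each read of a pair adds 1, so they were treated as raw counts. The submitters' processing notes name FastQC, cutadapt, STAR, featureCounts, DESeq2 and mm10. Versions, settings and use of strand are not given in the sources used here. Libraries were prepared with a SMART-Seq v4 PLUS kit, per the labels' protocols. The members, lists and tests were chosen with earlier results of these data known.

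Computed here: edgeR 4.0.16 in R 4.3.3, TMM scaling, a minimum mean count of 10, 1 quasi-likelihood model over all 12 libraries with group as the term, and Benjamini-Hochberg adjustment over all genes tested with a threshold of 0.05. CPM used TMM-scaled library sizes, and correlations used log2 CPM with a prior count of 2. Sequences came from GENCODE M21 and RefSeq; 98.3% of table rows lay at the GENCODE M21 position of their gene. The fits were tested on simulated data. Alternatives were DESeq2 1.42.0, limma 3.58.1 with sample quality weights, other filters, scalings and samples, a replicate block, a correction of fold changes for gene length and GC content, and each library left out. Replicate numbers were not treated as pairing. Libraries of 1 group differed by at least 66.3 times the counting noise (chi-square per degree of freedom), so no pair agreed within counting noise, and each library was counted as 1 replicate.

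Genes were named by rule: all 9 members; F3, Cr1l, Serping1, F2r, Pros1, Entpd1 and 1 gene not reported here; against WT, up to 6 further list genes past the threshold by p, or the 2 with the smallest p where fewer than 2 passed; the 2 genes closest to each member; and the targeted genes. Anxa5 and Synrg in Hdac2 ECKO were named to complete the list of calls.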

Additional observations from a re-analysis of the deposited data

Results flagged for a closer look

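Cd59b differed between beta-catenin GOF and Hdac2 ECKO by a direct comparison of these mutant groups, with a log2 difference of 1.81 (SE 0.29, edgeR adjusted p = 0.033) and every beta-catenin GOF library above every Hdac2 ECKO library. Cd59b also lay on opposite sides of WT in Hdac2 ECKO, at a mean of 22.3 CPM, and in the Ezh2 ECKO-labelled libraries, at 53.0 CPM, with WT at 33.5 CPM. On the TMM scale every library of the former was below and every library of the latter above all WT libraries; relative to library totals alone, Hdac2 ECKO (15.8 to 32.9 CPM) overlapped WT (25.8 to 43.1 CPM). The same held, on the same scale, for Hdac2 ECKO at 22.3 CPM and beta-catenin GOF at 78.3 CPM. Whether the effects against WT differ is the same contrast as that between the mutant groups: it passed for beta-catenin GOF (above) and gave an adjusted p of 0.23 for the Ezh2 ECKO-labelled libraries. These patterns were chosen with the results known.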

How the results depend on the processing

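The calls are few and near the threshold. The labels do not say whether same-numbered libraries belong together. In deviations from group means, 4 of 18 same-numbered pairs correlated above 0.1, with r from -0.14 to 0.27. In the same values, 6 of 12 libraries correlated best with their own number. With 3 libraries per group these values cannot decide whether the numbers pair libraries. Scaling by library size alone moved the median log2 difference of all genes in Hdac2 ECKO against WT from 0.10 to 0.34, with 1462 genes higher and 357 lower in place of 480 and 677. F8 had no value with the minimum mean count raised to 50.

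Of the 9 genes, the number called against WT was 0 in each group. In Hdac2 ECKO it became 1 with library size alone and 2 with quality weights. In the Ezh2 ECKO-labelled libraries it became 1 with no filter, DESeq2, quality weights, the replicate block, the length and GC correction, or block and correction together. In beta-catenin GOF it became 2 with no filter and 1 with DESeq2 or quality weights. For Hdac2 ECKO against the Ezh2 ECKO-labelled libraries it went from 0 to 1 with no filter or DESeq2. For beta-catenin GOF against Hdac2 ECKO it went from 1 to 2 with no filter, to 4 with quality weights, and to 0 with library size alone, only the 2 groups, or block and correction. For beta-catenin GOF against the Ezh2 ECKO-labelled libraries it went from 0 to 1 with no filter or DESeq2 and to 3 with quality weights. Without 1 library these counts ranged from 0 to 1 in the comparisons of Hdac2 ECKO with WT, of the Ezh2 ECKO-labelled libraries with WT, and of beta-catenin GOF with either other mutant, and were 0 in the other 2.

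Of the 60 other pathway genes, 8 were called in Hdac2 ECKO against WT, 14 by DESeq2 and 25 with quality weights, and 0 to 12 without 1 library. In the Ezh2 ECKO-labelled libraries against WT, 0 became 10 with no filter, 11 by DESeq2, 18 with quality weights and 2 with the replicate block, and 0 to 14 without 1 library. In beta-catenin GOF against WT, 0 became 5 with no filter and 3 by DESeq2, and 0 without any 1 library. For Hdac2 ECKO against the Ezh2 ECKO-labelled libraries, 0 became 2 with no filter, and 0 without any 1 library. For beta-catenin GOF against Hdac2 ECKO, 0 became 7 with no filter, 2 by DESeq2 and 15 with quality weights, and 0 to 3 without 1 library. For beta-catenin GOF against the Ezh2 ECKO-labelled libraries, 0 became 4 with no filter, 4 by DESeq2, 5 with quality weights, 0 to 5 without 1 library, and 1 with each of the other settings: a minimum mean count of 50, median-ratio scaling, library size alone, only the 2 groups, the replicate block, the length and GC correction, or both. The causes were not tested. The share of all genes called rose in these settings too. With no filter, DESeq2 and quality weights, in that order, it was 11.2%, 20.3% and 42.7% in Hdac2 ECKO against WT, 6.72%, 10.1% and 29.8% in the Ezh2 ECKO-labelled libraries against WT, and 0.772%, 0.303% and 0.207% in beta-catenin GOF against WT. It was 0.978%, 0.783% and 0.0875% between Hdac2 ECKO and the Ezh2 ECKO-labelled libraries, 4.81%, 6.72% and 26.5% between beta-catenin GOF and Hdac2 ECKO, and 1.76%, 1.15% and 11.6% between beta-catenin GOF and the Ezh2 ECKO-labelled libraries. In the other settings it was 14.5% in Hdac2 ECKO against WT with library size alone. For the Ezh2 ECKO-labelled libraries against WT it was 4.26% with the block, 1.6% with the correction and 3.33% with both. Between beta-catenin GOF and Hdac2 ECKO it was 0.0318% with library size alone, 0.0716% with only the 2 groups and 0.111% with block and correction, and between beta-catenin GOF and the Ezh2 ECKO-labelled libraries 0.0795% to 0.119%. Without 1 library it ranged from 0 to 17.6%, 0.0159% to 18.5% and 0 to 0.0318% against WT, and from 0.00795% to 0.0239%, 0 to 4.27% and 0.00795% to 5.82% between mutants, in the same order. Over all genes the replicate block called 1832 in Hdac2 ECKO and 536 in the Ezh2 ECKO-labelled libraries against WT, in place of 1157 and 129.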
